A study of Mus musculus with 10 samples.

Results

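Collagen genes were followed in C2C12 mouse myoblasts that received a mimic of miR-27a-3p or a scrambled RNA in its place. Every probe, controls left out, whose gene name in the scanner files was Col, a number, a and a number was taken, which gave 69 probes of 44 genes. Each gene was represented by the probe with the highest mean signal, and 19 of the 44 passed the filter of a signal well above background in 4 or more of the 10 files. They are described here in 3 classes: 6 fibrillar, 5 basement membrane and 8 other collagens, out of 13138 genes and transcripts tested.

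C2C12 is a clonal line derived from mouse skeletal muscle, whose cells divide as myoblasts and can fuse into myotubes. The labels give 6 samples transfected with the mimic and 4 with the scrambled sequence, both at 150 nM with Lipofectamine 2000, collected 72 h later and measured on 1-colour Agilent arrays. The submitters estimated that about 60% of the cells were transfected, so each sample mixes cells with and without the small RNA, and untreated cells were not analysed here. The 10 files were 2 scans each of 5 positions on 1 slide. They were averaged by position to mimic arrays 1, 2 and 3 and scrambled arrays 1 and 2, because scans of 1 position are not independent, although the labels describe independent transfections.

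Collagens are matrix proteins built from triple-helical chains. Fibrillar collagens such as types I, III and V form the cables that give tissue its tensile strength, while network collagens such as type IV form the sheet that surrounds each muscle fibre, and others decorate fibrils, form beaded filaments or anchor one layer to another. The chains are folded and hydroxylated in the endoplasmic reticulum, exported, trimmed by proteases and bound by integrins and other receptors. In skeletal muscle most collagen is made by fibroblast-like cells, and collagen VI, which lies next to the muscle fibre, is known for the myopathies that follow when it is lost.

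The mature microRNA that the mimic stands for is shown because its seed, bases 2 to 8 in capitals, is the stretch through which microRNAs recognise most targets. Sequences were taken from RefSeq for GRCm38.p6, where miR-27a-3p lies at chr8:84208727-84208747 on the plus strand and miR-27b-3p, the other mature microRNA listed with this seed, at chr13:63300760-63300780 on the plus strand.
mmu-miR-27a-3p: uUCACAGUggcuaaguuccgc
mmu-miR-27b-3p: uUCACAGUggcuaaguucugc
The complement of the seed, ACTGTGA, was searched in the 60 bases of each array probe, read as the transcript strand. It was in 0 of the 19 collagen probes used, in 1 of the 69 collagen probes (for Col23a1, which was not above background), and in 0.817% of the 55681 probes. A probe covers a small stretch of a transcript, so this says nothing of the rest of it.

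Levels are log2 signals minus the 75th percentile of the probes above background in every file of the series, taken for each file, and differences are mimic minus scrambled sequence. Leaving controls aside, spots counted as well above background made up 27.04% to 35.29% of each file, and none was saturated. The threshold was an adjusted p of 0.05 from limma over all genes tested, which 5.11% of them passed. Scrambled arrays 1 and 2 differed from each other by a median of 0.39 over the 19 collagens and 0.36 over all genes, both as absolute log2 differences. The p-values measure the spread between 5 arrays, which may be partly technical.

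Of the 18 collagens above background in both groups, 2 rose and 1 fell. Col12a1, which binds the surface of fibrils, and Col18a1, whose C-terminal piece is endostatin, were higher on the mimic arrays. Col16a1, another fibril-associated chain, was lower. In the whole array 2.77% of the genes rose and 2.34% fell. Col8a1, a network-forming chain made by endothelial and smooth muscle cells, was above background in mimic files alone. It entered the comparison through them and had to come out higher, so it is given below as a bound and left out of these counts. At an unadjusted p under 0.05, 7 of the 18 were higher and 3 lower, against 11.2% and 14.1% of all genes. The median difference of the 18 was 0.28, with a range of -1.69 to 1.11, while the median of all genes was -0.05. Positive differences numbered 14 among the 18 and 5951 among the 13138 genes tested. With Col8a1 at its bound the median of the 19 was also 0.28. Array by array, the mean level of the 19 was -0.83, -0.89 and -0.80 on mimic arrays 1 to 3, against -1.18 and -1.10 on scrambled arrays 1 and 2. Col8a1 is in these means with scrambled signals of -6.05 and -6.54, not above background. Part of the distance between the groups therefore comes from a gene that had to be higher, and no mean over the 18 was taken. Every mimic array lay above both scrambled arrays for 10 of the 18 collagens, below both for 3, and the groups overlapped for 5. Such separation was seen upward for 19.8% and downward for 25.7% of all genes. In these bulk samples, fewer cells of one kind and less RNA per cell cannot be told apart.

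**Figure D1:**
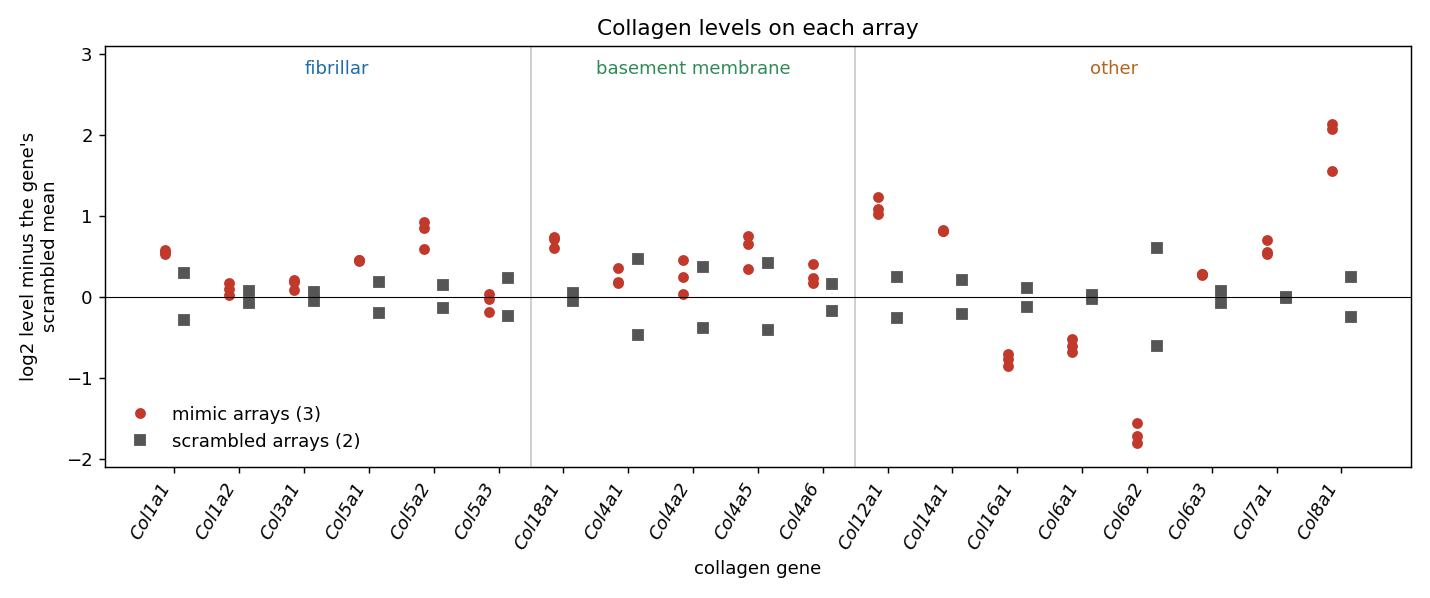
Log2 level of each of the 19 collagens on each array minus the mean of its scrambled arrays, so that 0 is the scrambled mean; red circles are the 3 mimic arrays and grey squares the 2 scrambled arrays, in the fibrillar, basement membrane and other classes. Col12a1 stands highest among the collagens above background in both groups and Col6a2 lowest on the mimic arrays, and the scrambled arrays of Col6a2 lie far apart (-1.26 and -0.05 as levels); the scrambled points of Col8a1 were not above background, so its distance is not a measured one.

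None of the 6 fibrillar collagens passed the threshold, and 3 were higher at an unadjusted p under 0.05, against 11.2% of all genes. Their median difference was 0.30, and 5 of the 6 differences were positive (5951 of 13138 among all genes). Col5a2, a chain of the type V collagen that sits in the core of fibrils and starts their assembly, had levels of -2.38, -2.64 and -2.31 on the mimic arrays, against -3.08 and -3.37 on the scrambled arrays. All mimic arrays lay above both scrambled arrays. The difference was 0.78 ± 0.17 (SE, n = 3 and 2, adjusted p = 0.064), at the mm9 probe position chr1:45431204-45431263. Col5a1, the other main type V chain, was at 0.64, 0.64 and 0.63 on the mimic arrays and at -0.01 and 0.38 on the scrambled arrays. The groups did not overlap, but the scrambled arrays stood further apart from each other than the mimic arrays did. Its difference was 0.45 ± 0.16 (adjusted p = 0.17), 0.25 without scrambled array 1 and 0.65 without scrambled array 2. Col5a3, another type V chain, had a difference of -0.06 ± 0.19 (adjusted p = 0.86), and its groups overlapped.

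The chains of type I collagen assemble into one molecule, and the difference between their responses was not tested. Col1a1, the chain present in more than one copy per molecule, had levels of 1.75, 1.70 and 1.73 on the mimic arrays, against 1.47 and 0.88 on the scrambled arrays (chr11:94813115-94813174, mm9). The mimic arrays were close together and above both scrambled arrays, of which array 2 was the lower. The difference was 0.55 ± 0.20 (SE, adjusted p = 0.17). Against scrambled array 2 alone it came to 0.85, and against scrambled array 1 alone to 0.26. With a single scrambled array left, the spread of that group is not measured, so no p is given for these values of Col1a1. Col1a2, its partner, differed by 0.10 ± 0.14 (adjusted p = 0.67), by 0.02 without scrambled array 1 and by 0.18 without scrambled array 2. Col3a1, the type III chain of pliable connective tissue, differed by 0.16 ± 0.14 (adjusted p = 0.49). The probe of Col3a1 lies 25.6 kb from that of Col5a2 on chromosome 1, and the genes are neighbours.

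All 5 basement membrane collagens had a positive difference (5951 of 13138 among all genes), with a median of 0.27. Of them 1 rose, against 2.77% of all genes. Col18a1, a heparan sulphate collagen of basement membranes, stood at 0.89, 0.79 and 0.92 on the mimic arrays, against 0.23 and 0.13 on the scrambled arrays (chr10:76515790-76515849, mm9). Both groups were tight and well apart. Means were 0.87 ± 0.07 on the mimic arrays and 0.18 ± 0.07 on the scrambled arrays (SD, n = 3 and 2), a difference of 0.68 ± 0.14 (SE), which is 1.6-fold (adjusted p = 0.049). The adjusted p lay at the edge of the threshold and was 0.052 in the first scan alone and 0.082 in the second, with differences of 0.72 and 0.64. A second Col18a1 probe, above background in all files, gave 0.82 ± 0.16, with means of 0.16 on the mimic arrays and -0.66 on the scrambled arrays (adjusted p = 0.051 with every probe tested).

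The type IV chains, the sheet of the basement membrane, varied more between the scrambled arrays than between the groups. Col4a1 was at -1.45, -1.43 and -1.26 on the mimic arrays and at -2.09 and -1.15 on the scrambled arrays. Its usual partner in the same molecule, Col4a2, was at -2.20, -2.40 and -1.99 on the mimic arrays and at -2.82 and -2.07 on the scrambled arrays. For both, scrambled array 1 lay below all mimic arrays, and scrambled array 2 lay within the range of the mimic arrays for Col4a2 and above it for Col4a1. The differences were 0.24 ± 0.28 for Col4a1 (adjusted p = 0.62) and 0.25 ± 0.26 for Col4a2 (adjusted p = 0.57), and without scrambled array 1 they turned to -0.23 and -0.13. Scrambled array 1 minus scrambled array 2 was -0.94 for Col4a1 and -0.75 for Col4a2. Col4a5, a chain whose human counterpart is mutated in Alport syndrome, differed by 0.58 ± 0.28 (adjusted p = 0.25). Set against scrambled array 2 alone the difference came to 1.0, and against scrambled array 1 alone to 0.17. A single scrambled array holds no spread of its group, so no p is given for these values of Col4a5. Col4a6, its neighbour on the X chromosome, differed by 0.27 ± 0.17 (adjusted p = 0.35) and was above background in 3 of the 4 scrambled files.

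Col4a1 and Col4a2 are transcribed on opposite strands from starts that RefSeq places 21 bases apart. Each start lies inside the other transcript as listed, so the first bases of both overlap. Their promoters are shown because the windows, 250 bases before to 50 after each start, share 78 bases of DNA read on opposite strands. The shared stretch lies around the starts and holds the first 50 bases of each transcript. Col4a1 is at chr8:11312777-11313076 on the minus strand and Col4a2 at chr8:11312555-11312854 on the plus strand (GRCm38.p6). Capitals mark matches, on either strand, to the letters CCAAT (the CCAAT box) and GGGCGG (the GC box).
Col4a1 promoter: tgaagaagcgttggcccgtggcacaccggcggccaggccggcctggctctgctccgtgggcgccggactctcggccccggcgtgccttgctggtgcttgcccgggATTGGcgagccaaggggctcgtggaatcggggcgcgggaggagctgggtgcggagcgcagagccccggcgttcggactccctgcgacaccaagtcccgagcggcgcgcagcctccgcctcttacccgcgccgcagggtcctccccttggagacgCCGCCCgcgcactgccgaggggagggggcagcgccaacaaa
Col4a2 promoter: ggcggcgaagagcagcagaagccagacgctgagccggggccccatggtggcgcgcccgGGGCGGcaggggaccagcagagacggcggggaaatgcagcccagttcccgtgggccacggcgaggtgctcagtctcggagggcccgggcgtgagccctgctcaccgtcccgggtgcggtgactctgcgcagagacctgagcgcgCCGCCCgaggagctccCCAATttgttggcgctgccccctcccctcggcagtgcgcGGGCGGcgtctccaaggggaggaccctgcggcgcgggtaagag

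Of the other 8 collagens, 7 were above background in both groups, with 1 that rose, 1 that fell and a median of 0.28. Among all genes 2.77% rose and 2.34% fell. The median of the 8 was 0.44 as fitted and 0.42 with Col8a1 at its bound. Col12a1, which links fibrils to other matrix proteins in tendon and muscle connective tissue, was at -2.70, -2.92 and -2.86 on the mimic arrays, against -4.20 and -3.69 on the scrambled arrays (chr9:79446895-79446954, mm9). The mimic arrays lay above both scrambled arrays, which differed from each other. Means were -2.83 ± 0.11 on the mimic arrays and -3.94 ± 0.37 on the scrambled arrays (SD, n = 3 and 2), and the difference was 1.11 ± 0.20 (SE), or 2.16-fold (adjusted p = 0.038). It was above background in 3 of the 4 scrambled files. Within the first and second scans the difference was 1.03 and 1.20 (adjusted p = 0.064 and 0.046), and it was 0.65 with normexp background correction (adjusted p = 0.076).

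Col14a1, a fibril-associated chain related to Col12a1, had levels of -2.99, -2.98 and -2.99 on the mimic arrays, against -3.60 and -4.02 on the scrambled arrays. The groups were apart, and 3 of the 4 scrambled files were above background. The difference was 0.82 ± 0.17 (SE, adjusted p = 0.054).

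Col16a1, a fibril-associated chain found near cell surfaces and in skin and cartilage matrix, was at -1.32, -1.47 and -1.39 on the mimic arrays, against -0.74 and -0.51 on the scrambled arrays (chr4:129776333-129776392, mm9). Every mimic array lay below both scrambled arrays. It averaged -1.39 ± 0.07 on the mimic arrays and -0.62 ± 0.16 on the scrambled arrays (SD, n = 3 and 2), a difference of -0.77 ± 0.15 (SE, adjusted p = 0.044), which is 1.7-fold lower. The first scan gave -0.79 (adjusted p = 0.046) and the second -0.75 (adjusted p = 0.067). A second probe above background in all files gave -0.53 ± 0.23 (adjusted p = 0.22 with every probe tested).

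Col8a1 was well above background in 4 of the 6 mimic files and in 0 of the 4 scrambled files, so it entered the comparison through the mimic samples alone and its level in the others is only bounded. It read -4.22, -4.73 and -4.15 on the mimic arrays, against -6.05 and -6.54, not well above background, on the scrambled arrays (chr16:57624471-57624530, mm9). The mimic arrays lay above both scrambled arrays. It was at least 1.48-fold higher, measured against the lowest signal that counted as well above background. The fitted difference of 1.93 ± 0.25 (adjusted p = 0.017) rests on the dim values, and its p tests that difference and not the bound. It was 1.96 in the first scan and 1.89 in the second (adjusted p = 0.013 and 0.037). With normexp background correction it was 0.64 (adjusted p = 0.051).

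Col7a1, the anchoring fibril chain that fastens skin epithelium to the layer below, had levels of -3.41, -3.43 and -3.26 on the mimic arrays, against -3.96 and -3.97 on the scrambled arrays. The groups were apart, and the difference was 0.60 ± 0.14 (SE, adjusted p = 0.067). The scrambled arrays were alike only as averages. Their scans read -3.78 and -4.14 for array 1 and -4.22 and -3.72 for array 2. With normexp background correction the difference was 0.33 (adjusted p = 0.17).

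The differences of the collagen VI genes had unlike signs. Col6a1 and Col6a2 encode chains that must join with that of Col6a3 to make the beaded filaments of collagen VI. Col6a2 was at -2.45, -2.37 and -2.21 on the mimic arrays, against -1.26 and -0.05 on the scrambled arrays (chr10:76058931-76058990, mm9). Every mimic array lay below both scrambled arrays, and scrambled array 2 was the highest by far. Its means were -2.34 ± 0.12 on the mimic arrays and -0.65 ± 0.86 on the scrambled arrays (SD, n = 3 and 2), a difference of -1.69 ± 0.35 (SE), or 3.22-fold lower, the largest fitted difference downward among the 19, which missed the threshold (adjusted p = 0.055). Without scrambled array 2 it was -1.08, and without scrambled array 1 it was -2.29, each with a single scrambled array left. Without mimic array 1, 2 or 3 it was -1.64, -1.67 and -1.76 (adjusted p = 0.19, 0.17 and 0.14). Another Col6a2 probe was above background in no file.

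Col6a1 was at 2.00, 2.09 and 1.93 on the mimic arrays and at 2.63 and 2.59 on the scrambled arrays (chr10:76171538-76171597, mm9). The groups were apart and each was tight. Means were 2.01 ± 0.08 on the mimic arrays and 2.61 ± 0.03 on the scrambled arrays (SD, n = 3 and 2), and the difference was -0.60 ± 0.14 (SE, adjusted p = 0.064). Col6a3, the long chain of the same molecule, was at 1.43, 1.42 and 1.43 on the mimic arrays and at 1.08 and 1.22 on the scrambled arrays. It differed by 0.28 ± 0.13 (adjusted p = 0.25), with every mimic array above both scrambled arrays (chr1:92663663-92663722, mm9). The differences between the chains were not tested.

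**Figure D2:**
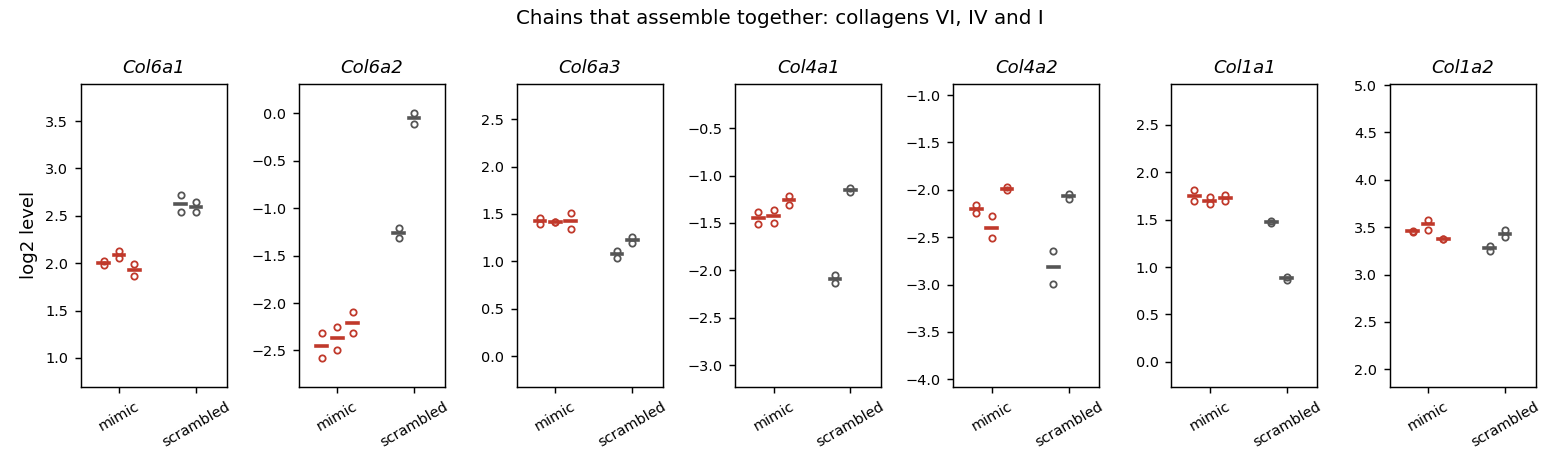
Log2 level of the chains of collagens VI (Col6a1, Col6a2, Col6a3), IV (Col4a1, Col4a2) and I (Col1a1, Col1a2); open circles are single files (scans), short bars the mean of the scans of an array, red for mimic and grey for scrambled, and each panel has its own level but the same height in log2 units. Mimic arrays lie below the scrambled arrays for Col6a1 and Col6a2 and above them for Col6a3 and Col1a1, and the scrambled arrays of Col4a1, Col4a2, Col6a2 and Col1a1 stand apart from each other.

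Col6a1 and Col6a2 are neighbours on chromosome 10, with probes 112.5 kb apart on mm9, and Col18a1, which rose, has its probe 344.2 kb from that of Col6a1. The promoters of the collagen VI neighbours are shown because these genes had the same sign and lie side by side. RefSeq places the Col6a1 window at chr10:76725995-76726294 and the first listed Col6a2 window at chr10:76623355-76623654, both on the minus strand (GRCm38.p6). Capitals mark a match to TGANTCA, the AP-1 motif, in Col6a1, and matches to GGGCGG or its complement, which may overlap each other, in Col6a2.
Col6a1 promoter: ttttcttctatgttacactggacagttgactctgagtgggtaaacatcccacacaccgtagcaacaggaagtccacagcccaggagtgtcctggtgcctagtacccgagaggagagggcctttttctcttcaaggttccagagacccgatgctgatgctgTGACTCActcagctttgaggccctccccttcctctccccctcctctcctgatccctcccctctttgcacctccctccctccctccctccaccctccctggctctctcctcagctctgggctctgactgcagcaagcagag
Col6a2 promoter: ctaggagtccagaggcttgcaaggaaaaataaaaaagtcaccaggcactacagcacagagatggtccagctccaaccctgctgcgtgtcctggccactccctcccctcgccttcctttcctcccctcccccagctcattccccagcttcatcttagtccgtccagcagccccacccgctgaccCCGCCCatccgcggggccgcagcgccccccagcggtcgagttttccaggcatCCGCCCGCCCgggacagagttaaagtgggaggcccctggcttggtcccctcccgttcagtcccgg
A promoter was listed for 15 of the 19 collagens. Of these 15, 12 held GGGCGG (35.9% of 27025 promoters of the same length did), 8 held CCAAT (37.9%) and 2 held the E-box CAGCTG (16.1%). The letters TATAAA were in 1, Col3a1 (14.2%), and TGANTCA in 1, Col6a1 (7.93%), with both strands searched for each motif. These matches are letters in a window and were not tested as binding sites.

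**Figure D3:**
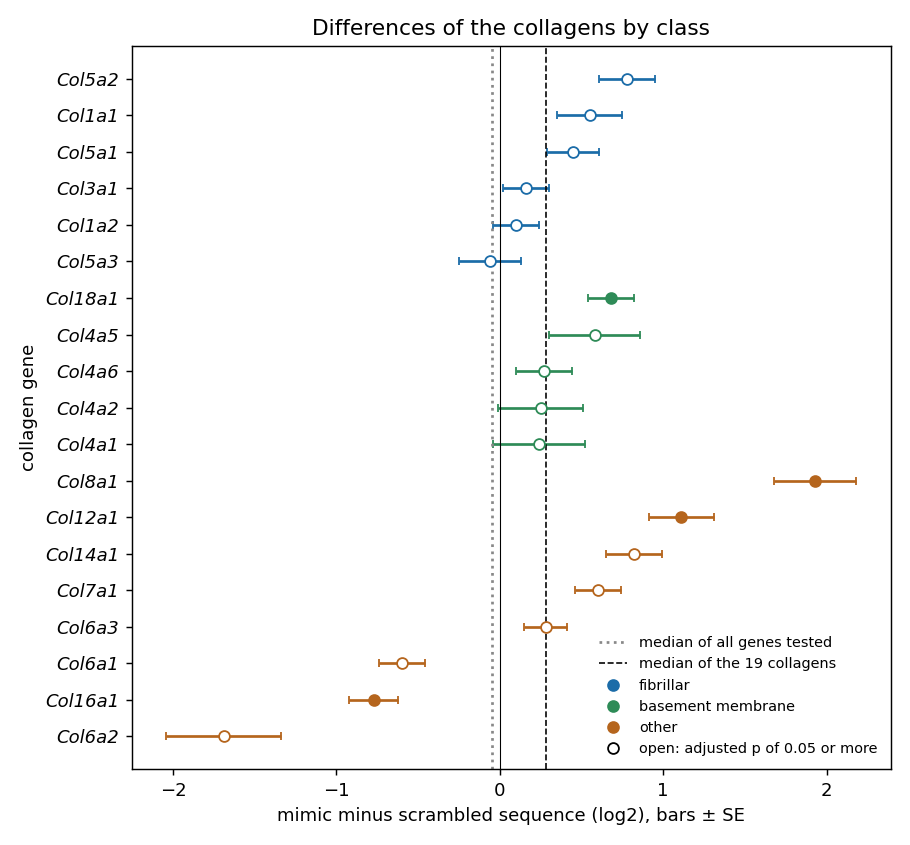
Mimic minus scrambled difference (log2, bars ± SE) of each collagen, ordered within class, with filled points for an adjusted p under 0.05; the dotted line is the median of all genes (-0.05) and the dashed line that of the 19 collagens (0.28). Fibrillar and basement membrane chains lie between -0.06 and 0.78, while the other class runs from -1.69 to 1.11 among chains above background in both groups; the point of Col8a1 (1.93) rests on scrambled signals not above background, and its bound is at least 1.48-fold.

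The remaining 25 collagen genes were below the filter and were not tested. Among the fibrillar chains these were Col2a1, Col11a1, Col11a2, Col24a1 and Col27a1, which include the main chains of cartilage. The basement membrane chains Col4a3, Col4a4 and Col15a1 were also below it, as were 17 others, among them Col9a1, Col9a2, Col9a3 and Col10a1 of cartilage, Col17a1 of hemidesmosomes, and Col13a1, Col22a1 and Col25a1, which are known from the junctions of muscle with nerve or tendon. The rest were Col6a4, Col6a5, Col6a6, Col8a2, Col19a1, Col20a1, Col23a1, Col26a1 and Col28a1. Nearest to the threshold of 4 files among these, though well below it, stood Col28a1 and Col6a6, each above background in 1 scrambled file, and Col20a1, in 1 mimic file on a spot marked as an outlier, and the other 22 were above background in no file. Col8a1, with 4 files, was the member nearest to it from above.

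The genes of collagen synthesis and folding gave 1 rise and no fall among the 15 of 20 listed that were tested, with a median of 0.24. Among all genes 2.77% rose and 2.34% fell. P4ha1, a catalytic subunit of prolyl 4-hydroxylase, which stabilises the triple helix, was at -2.30, -2.37 and -2.24 on the mimic arrays, against -3.0 and -3.13 on the scrambled arrays. The groups were apart, with a difference of 0.76 ± 0.14 (SE, adjusted p = 0.039). P4ha2, the related subunit, differed by 0.72 ± 0.15 (adjusted p = 0.056). Plod2, which hydroxylates lysines used in cross-links, differed by 0.52 ± 0.13 and Fkbp10, a collagen chaperone, by 0.56 ± 0.14 (adjusted p = 0.087 for both). Of the 15 differences 6 were negative, the largest that of Plod3, a lysyl hydroxylase that also adds sugars, at -0.54 ± 0.21 (adjusted p = 0.19).

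Export and propeptide cleavage also held 1 rise among 11 of 14 listed genes (2.77% of all genes rose), with a median of 0.19. Pcolce2, which enhances the removal of the C-terminal propeptide, was at -1.36, -1.32 and -1.38 on the mimic arrays, against -2.44 and -2.57 on the scrambled arrays. Both groups were tight and far apart, and the difference was 1.15 ± 0.13 (SE, adjusted p = 0.012). Bmp1, the protease that removes that propeptide, differed by 0.61 ± 0.22 and Sec23a, part of the coat of transport vesicles, by 0.40 ± 0.14 (adjusted p = 0.16 for both). Adamts2, which removes the N-terminal propeptide, differed by 0.37 ± 0.15 (adjusted p = 0.20).

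Of the receptors and uptake genes, 6 of 10 were tested, with a median of -0.04, and 1 rose (2.77% of all genes did). Itga10, an integrin subunit that binds collagen and is best known from cartilage, was at -2.14, -2.23 and -2.28 on the mimic arrays, against -4.22 and -4.50 on the scrambled arrays, where 3 of the 4 files were above background. The groups were far apart, with a difference of 2.15 ± 0.15 (SE, adjusted p = 0.0043). Mrc2, which takes up collagen for breakdown, differed by -1.08 ± 0.43 (adjusted p = 0.19). It was above background in 2 of 6 mimic files and 3 of 4 scrambled files, and its scrambled arrays stood apart, at -4.32 and -2.89. Itgb1, the beta subunit that pairs with Itga10, differed by -0.55 ± 0.28 (adjusted p = 0.27).

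No gene of TGF-beta signalling and collagen mRNA regulation passed the threshold among 12 of 14 listed in limma's test, with a median of -0.29. Before adjustment 3 were higher and 4 lower at a p under 0.05. The ligand Tgfb2 differed by 0.77 ± 0.16 (adjusted p = 0.057) and Ccn2, a matricellular protein induced by TGF-beta, by 0.94 ± 0.21 (adjusted p = 0.061). Smad2, a signal transducer of the pathway, differed by -0.76 ± 0.17 (adjusted p = 0.067), and Scx, a transcription factor of tendon cells, by -0.53 ± 0.14 (adjusted p = 0.098). Over these 4 lists together 3 of the 44 genes tested rose and none fell, against 2.77% and 2.34% of all genes. At an unadjusted p under 0.05, 11 of the 44 lay upward and 6 downward, against 11.2% and 14.1% of all genes.

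**Figure D4:**
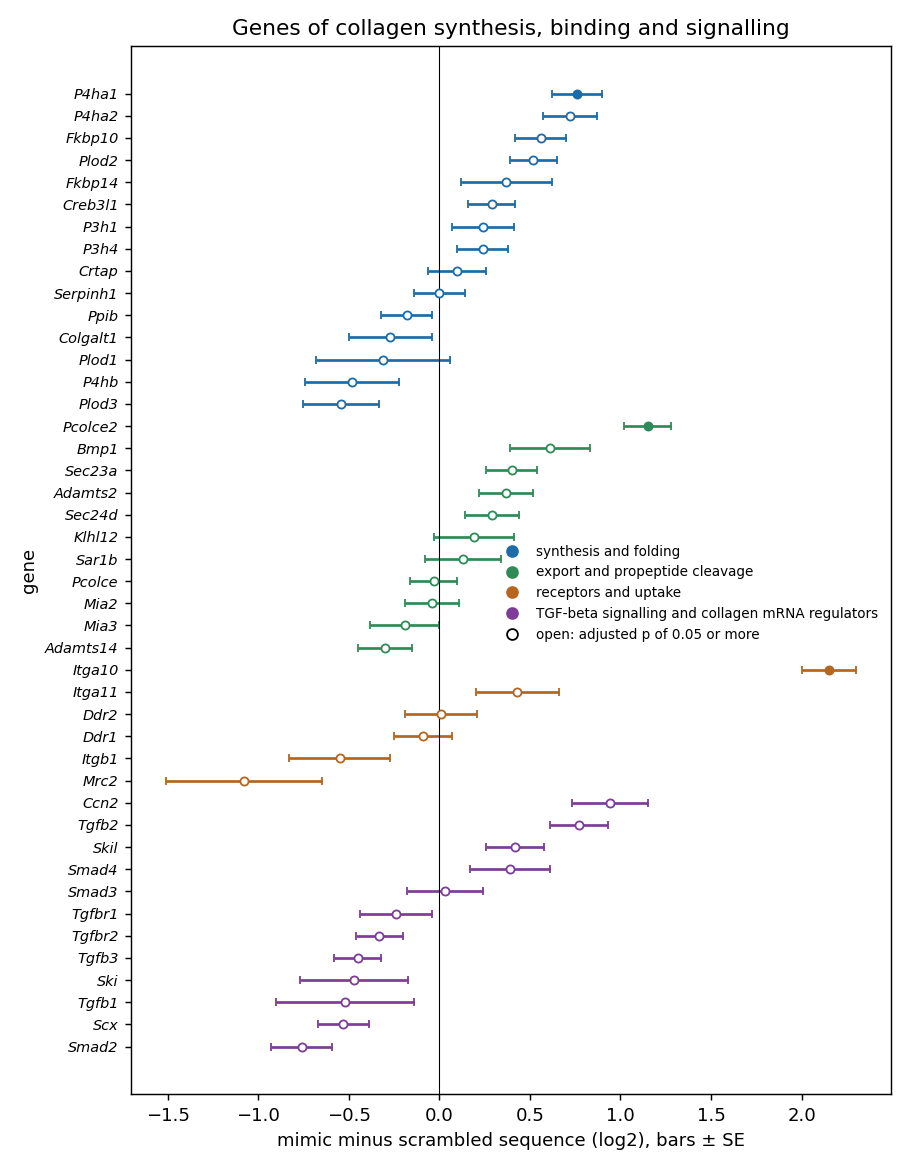
Mimic minus scrambled difference (log2, bars ± SE) of the 44 tested genes of collagen synthesis, export and cleavage, binding and TGF-beta signalling, coloured by list, with filled points for an adjusted p under 0.05. P4ha1, Pcolce2 and Itga10 are the filled points, and the signalling genes lie on both sides of 0.

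Markers of cell types also differed between the groups. Of 14 muscle differentiation genes, such as Myog, a transcription factor that starts terminal differentiation, 10 fell and none rose, against 2.34% and 2.77% of all genes, with a median of -1.66. Their mean level was -0.46, -0.39 and -1.19 on the mimic arrays, against 0.92 and 0.99 on the scrambled arrays. On mimic array 3, Myh8 and Ckm read -6.49 and -6.27, far below their levels on the other mimic arrays. Each was above background in 4 of the 6 mimic files, as was Mylpf. The lower mean of mimic array 3 therefore rests largely on dim signals. Of 10 myoblast lineage genes 7 were tested and none passed the threshold in limma's test (4 were lower and 0 were higher before adjustment, at p under 0.05, against 14.1% and 11.2% of all genes), with mean levels of 0.79, 0.83 and 0.78 on the mimic arrays, against 1.03 and 1.26 on the scrambled arrays. Myod1, Des and Cdh15 were above background in all files, whereas Pax7 and Pax3 were above it in none and Myf5 in 1 mimic file.

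Of 8 fibroblast genes 5 were tested and 2 fell (2.34% of all genes did), both receptors for platelet-derived growth factor: Pdgfra, with a fitted difference of -0.96 ± 0.16 (adjusted p = 0.031) that rests on dim signals, above background in 1 of 6 mimic files and 3 of 4 scrambled files, and Pdgfrb, with -1.14 ± 0.13 (adjusted p = 0.012). The mean level of the 5 was -2.56, -2.57 and -2.75 on the mimic arrays, against -1.96 and -2.51 on the scrambled arrays. Scrambled array 2 lay closer to the mimic arrays than to scrambled array 1. Pi16, also dim, was above background in 3 of 6 mimic files and 3 of 4 scrambled files and differed by -0.49 ± 0.23 (adjusted p = 0.24). Lum differed by 0.19 ± 0.40 (adjusted p = 0.78). Thy1, Dpt and Tcf21 were above background in no file, and Dcn, which encodes a small proteoglycan bound to collagen, differed by 0.48 ± 0.19 (adjusted p = 0.19). Of 4 smooth muscle genes 2 were tested, with mean levels of -0.25, -0.26 and -0.25 on the mimic arrays, against 0.47 and 0.74 on the scrambled arrays, and Tagln, an actin-binding protein, fell by 1.01 ± 0.15 (adjusted p = 0.021), while Cnn1 and Myh11 were above background in no file. Of 8 cartilage and bone genes, Sox9 and Acan were tested and none passed the threshold in limma's test (0 at an unadjusted p under 0.05), with mean levels of -3.34, -3.62 and -3.57 on the mimic arrays, against -3.45 and -3.66 on the scrambled arrays, and Comp, Runx2, Sp7, Ibsp and Alpl were above background in no file. Kdr was the 1 endothelial gene of 3 tested, at 0.19 ± 0.17 (adjusted p = 0.51), and the 4 epithelial and 3 adipocyte genes were above background in no file. The part of these cell types, and of muscle differentiation, in the collagen differences was not tested.

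The calls rested on few arrays. Without mimic array 1, 0 collagens were called by limma (47 of all genes) and without mimic array 3 also 0 (138 of all genes). Without mimic array 2 only Col8a1 was called (72), without scrambled array 2 Col12a1 and Col6a2 (561), and without scrambled array 1 there were 8 higher and 3 lower (4342 of all genes, 33.0%), which adds Col1a1, Col4a5, Col5a2, Col6a1, Col6a2, Col7a1 and Col14a1 to the others. With a scrambled array left out 1 remains, so the calls without scrambled array 1 or 2 hold no spread of that group. Limma's adjusted p stayed under 0.05 in 17 of 28 alternatives for Col12a1, 17 of 29 for Col16a1 and 10 of 29 for Col18a1. The direction of these 3 was the same in every alternative. For Col8a1 the count was 23 of 28, but it entered through the mimic files alone and had to come out higher. Neither that count nor its call without mimic array 2 is support.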

How the data were processed

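Per the file headers, the deposited scanner output gives linear intensity for each spot as the processed signal of Agilent Feature Extraction, with the spot mean and local background intensity and flags for well-above-background, outlier and saturated spots. The headers name version 12.0.0.7 and mm9 probe positions, whereas version 10.7.3.1 stands in the submitters' processing notes. The deposited value table holds the authors' processed intensity of the same arrays and served as an alternative. Here log2 of the deposited processed signal was taken, control and outlier spots were left out, spots of 1 probe averaged, and each file's 75th percentile over the 13029 probes above background in all 10 files subtracted. The scans of a position were averaged, giving 3 mimic and 2 scrambled arrays. Probes above background in at least 4 files were kept, 16786 of 55681, and 1 per gene was used.

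The comparison used limma 3.58.1 (R 4.3.3) with lmFit and eBayes. The fit had 3 residual degrees of freedom and borrowed 2.92 from other genes. P-values were adjusted by Benjamini-Hochberg over 13138 genes, with a threshold of 0.05. The procedure was tested on simulated data. Other genes were named through RefSeq's GRCm38.p6 table by accession (28026 probes), symbol (3418) or older symbol (295), and collagens by the name in the files. All 19 collagens were named by the rule, with values on all arrays for those under an unadjusted p of 0.05, and for chains that assemble with another collagen chosen after their values were seen. In the lists of collagen synthesis, export, receptor and signalling genes, those past the threshold and up to 4 others with the smallest p were named. In the cell type marker lists not every gene past the threshold was named. The members and lists were chosen with earlier results of these data known. The alternatives numbered 29. The number of arrays limits the precision.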

Additional observations from a re-analysis of the deposited data

How the results depend on the processing

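Main counts were 672 genes, 4 collagens (Col8a1 among them) and 3 of the listed synthesis, receptor and signalling genes. With the 10 files as separate arrays they were 4510, 13 and 21. With the scan as a block and position as a random block they were 1459, 7 and 9. With normexp 2 collagens were called (546 genes, 4.18%), with the second scan alone 2 (529 genes, 4.04%), and 1 with the deposited value table (218 genes, 1.26%). Without a filter on dim probes 17 genes and by limma 0 collagens and 0 listed genes were called. Listed genes numbered 6 with the percentile over all probes (730 genes called in all, 5.56%) and 5 with quantile normalisation (664, 5.05%). They numbered 5 with probes above background in all files (606, 5.73%) and 6 with the trended robust eBayes (766, 5.83%). Deviations of same-numbered files correlated at 0.382, -0.0362, -0.351 and -0.106 over 13059 genes. These carry the scan as well: files numbered 3 came from different scans, the other same-numbered files from the same scan. They therefore cannot settle whether replicate numbers pair the samples. With the replicate number as a block on separate files 1948 genes, 8 collagens and 12 listed genes were called. Leaving out single files or arrays gave 47 to 4342 genes, 0 to 11 collagens and 1 to 21 listed genes. The percentile over all probes moved the median of all genes to 0.11, and quantile normalisation and the deposited table moved it to 0.03. The fibrillar median was 0.46, 0.38 and 0.38 under these, and 0.22 to 0.32 with a file or array left out. The basement membrane median was 0.43 under each, 0.31 and 0.32 in the first and second scans, 0.20 with normexp, 0.42 with probes above background in all files, and 0.20 to 0.62 with a file or array left out. The median of the other class was 0.60 with the percentile over all probes, 0.29 with normexp, 0.37 to 0.51 with a file or array left out, and turned to -0.60 with probes above background in all files, which leaves out Col8a1, Col12a1 and Col14a1. The median of the 19 was 0.25 to 0.42 with a file or array left out. Col5a3 turned to 0.01 with normexp, 0.10 with the percentile over all probes, 0.01 without mimic array 2 and 0.17 without scrambled array 2 (range -0.29 to 0.17 with a file or array left out). Without scrambled array 1, Col4a1 turned to -0.23 (range to 0.71) and Col4a2 to -0.13 (range to 0.62). Causes were not tested. An array left out of the scrambled group leaves 1, assumed to vary like the mimic arrays. Signals near background limit Col8a1, Col12a1, Col14a1 and Col4a6 most.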
